A study of Homo sapiens with 4 samples.

Results

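Glucose uptake, the steps of glycolysis and lactate export were described through 34 genes, chosen by symbol as the carriers, enzymes and close regulators of that route. Of these, 31 carried a named probe set in the array table and were measured, out of 24241 named genes, while PGAM1, SLC16A1 and SLC16A3 were not analysed here. The lactate carriers named in the list are thus both missing, and the measured route ends at lactate dehydrogenase. The data are 4 Affymetrix whole-transcript arrays of a human acute myeloid leukaemia cell line, MOLM-14, grown in alpha-MEM with serum. The control group of 2 cultures was exposed to 30 µM GSK621, which activates the energy-sensing kinase AMPK, over 6 h. A further 2 cultures had 12 h of 10 nM rapamycin, which blocks the growth-promoting kinase complex mTORC1, and then GSK621 at the same dose and for the same time. Every array therefore comes from GSK621-treated cells of a single line, and a difference between the groups does not separate an effect of rapamycin from an altered response to GSK621. The labels call the cultures biological replicates, so n = 2 per group.

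Glycolysis turns glucose into pyruvate in the cytosol and yields ATP without oxygen, and leukaemia cells use it heavily. Many of its steps are served by several isoenzymes, products of different genes with different tissue ranges and different control, and the hypoxia-inducible factor HIF1 is a known activator of a subset of them. mTORC1 is known to promote glycolysis in proliferating cells, in part through HIF1 and MYC, whereas AMPK restrains mTORC1 and can promote glucose uptake and glycolysis after energy loss. None of these activities, and no glucose or lactate flux, was measured on the arrays.

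The members with the lower levels after rapamycin and GSK621 stood at uptake, hexokinase, control by fructose bisphosphate, aldolase, phosphoglycerate kinase, enolase and lactate dehydrogenase. The glucose carrier SLC2A1 was 1.70-fold lower, the regulatory enzyme PFKFB4 1.67-fold, hexokinase HK2 1.59-fold, enolase ENO2 1.54-fold and aldolase ALDOC 1.42-fold. LDHA, PGK1 and SLC2A3 were lower by smaller amounts, while the log2 differences of GAPDH, LDHB and GPI were −0.018, 0.014 and 0.055. With limma, no member and 0 of 24241 genes reached an adjusted p below 0.05, and among members SLC2A1 came closest (adjusted p = 0.413). At an unadjusted p under 0.05 there were 8 of 31 members lower (25.8%) and 0 higher. Over all genes 4.20% were lower and 4.31% higher. The members were chosen with earlier results of these data known, so the count of 8 describes the list and does not test it. That count was 5 without replicate 2 of rapamycin then GSK621, where SLC2A3, PGK1 and LDHA left it.

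Of the 31 members, 22 had a lower mean after rapamycin, beside 48.8% of all genes, and 9 a higher mean, beside 51.2%. Both rapamycin arrays lay below both GSK621 arrays for 17 members (54.8%), beside 18.9% of all genes. They lay above them for 6 members (19.4%), beside 20.5% of all genes. Among genes with a mean level above the median of all genes, these shares were 21.0% and 26.0%. Among the 25 members above that median they were 60.0% and 16.0%. The median log2 difference over the members was −0.093, against 0.0045 over all genes. It came to −0.062 without GSK621 replicate 1. All 8 lower members were among the 25 with a mean level above the median of all genes, and in genes above that median 4.64% were lower at the same unadjusted p. The 6 dimmer members (HK3, PFKM, PFKFB1, PFKFB2, ENO3 and PKLR) held 0 of the 8.

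**Figure D1:**
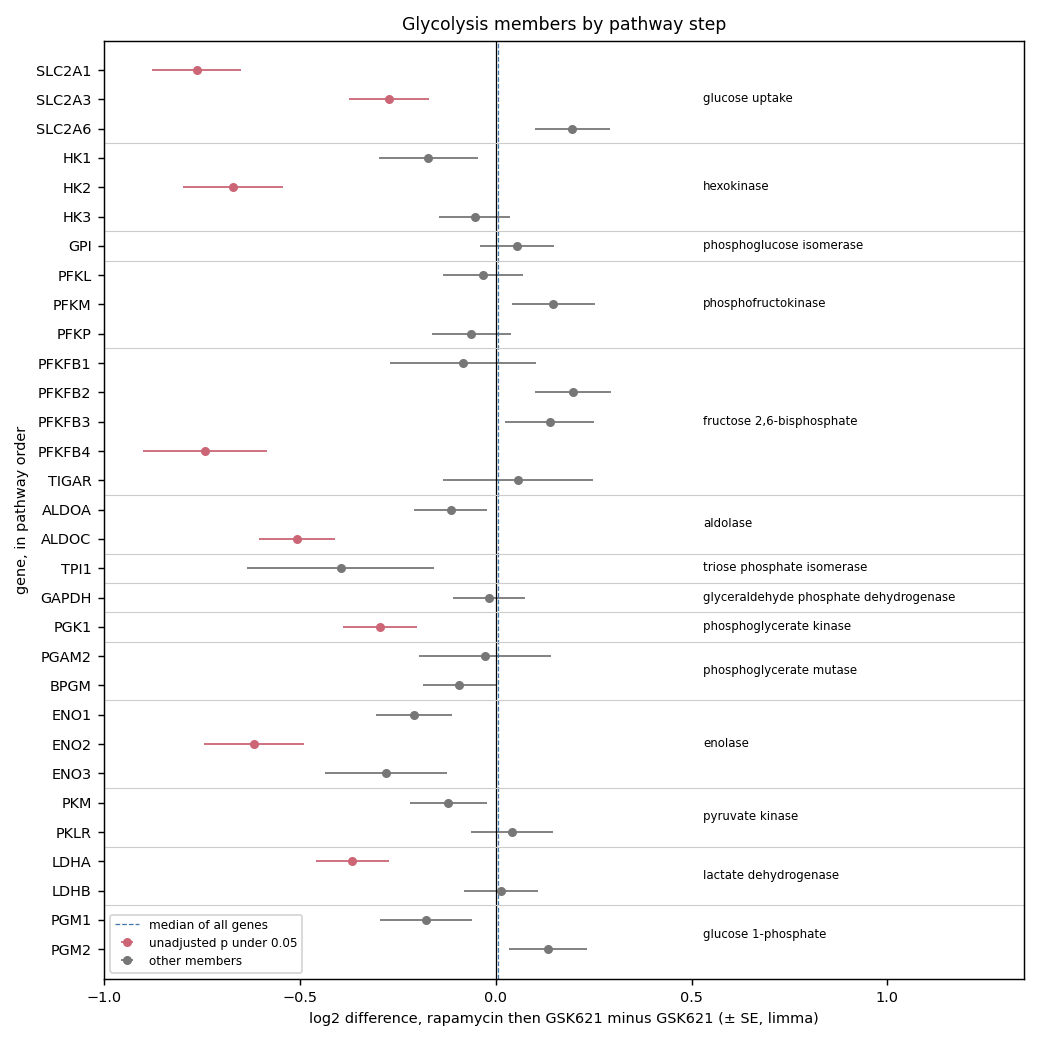
Log2 difference of rapamycin then GSK621 minus GSK621 for the 31 measured members in pathway order, from limma, with bars of 1 SE and n = 2 arrays per group. The 8 red points, from −0.76 for SLC2A1 to −0.27 for SLC2A3, are members with an unadjusted p under 0.05, and the dashed line is the median of all genes at 0.0045.

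Glucose enters these cells through carriers of the SLC2A family. SLC2A1, the widely expressed GLUT1 carrier, read 9.10 and 8.88 on the log2 scale in the GSK621 arrays and 8.24 and 8.21 after rapamycin and GSK621. The groups were clearly apart, with the rapamycin arrays almost equal to each other. The difference was −0.76 ± 0.11 (SE, limma), with an adjusted p of 0.413. SLC2A3, the high-affinity GLUT3 carrier, read 9.51 and 9.37 against 9.13 and 9.21, a difference of −0.27 ± 0.10 (adjusted p = 0.584). Its groups did not overlap, but SLC2A14 is a near-identical copy, so the signal may be shared between them. The probe set named for SLC2A14 read 3.97 and 4.12 against 3.86 and 4.14, a difference of −0.044 ± 0.13. How far the signal is shared was not tested. SLC2A6, a carrier of lysosomal membranes, read 5.98 and 5.89 against 6.15 and 6.11 and was the carrier with higher rapamycin arrays, at 0.20 ± 0.10 (adjusted p = 0.647).

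Hexokinase traps glucose in the cell by phosphorylating it. HK2, the inducible form bound to mitochondria, read 10.03 and 9.75 in the GSK621 arrays and 9.17 and 9.27 after rapamycin. Both rapamycin arrays were lower than both others, and the difference was −0.67 ± 0.13 (adjusted p = 0.430). HK1, the more constitutive form, read 6.84 and 6.56 against 6.53 and 6.52. GSK621 replicate 1 stood above the other 3 arrays, so that the difference of −0.17 ± 0.13 came to −0.030 without it. HK3, the form typical of myeloid cells, read 3.90 and 3.92 against 3.85 and 3.86, a difference of −0.054 ± 0.09 at a dim level.

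The sequences before the transcription starts of HK2 and HK1 are shown because these genes serve the same step with unlike differences. Each window runs from 250 bases before to 50 bases after 1 start annotated by RefSeq on GRCh38.p14, and capitals mark ACGTG on either strand (CACGT on the opposite strand), the core of hypoxia response elements. HK2 lies at chr2:74833877-74834176, plus strand, and HK1 at chr10:69269750-69270049, plus strand.
HK2: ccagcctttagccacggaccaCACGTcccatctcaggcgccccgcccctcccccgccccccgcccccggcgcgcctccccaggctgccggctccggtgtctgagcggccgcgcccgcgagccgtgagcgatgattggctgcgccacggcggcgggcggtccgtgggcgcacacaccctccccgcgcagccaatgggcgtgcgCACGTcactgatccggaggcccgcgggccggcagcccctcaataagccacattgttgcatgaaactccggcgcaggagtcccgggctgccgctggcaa
HK1: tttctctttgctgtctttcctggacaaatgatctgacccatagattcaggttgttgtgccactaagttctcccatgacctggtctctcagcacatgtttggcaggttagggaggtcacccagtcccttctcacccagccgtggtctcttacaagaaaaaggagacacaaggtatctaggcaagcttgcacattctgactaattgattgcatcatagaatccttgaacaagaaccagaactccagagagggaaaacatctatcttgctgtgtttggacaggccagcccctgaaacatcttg
In the HK2 window the motif stood at 2 places, 229 and 48 bases before the start, and in the HK1 window these letters were not present. The HK1 window held 46.7% G and C and the HK2 window 74.3%. Both genes can use other starts, which were not searched. Whether the starts shown are those used in these cells was not tested, so the missing motif describes this HK1 window alone.

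Phosphoglucose isomerase and phosphofructokinase carry the sugar on to fructose 1,6-bisphosphate, and phosphofructokinase is a main control point of the pathway. GPI, the isomerase, read 10.70 and 10.67 against 10.78 and 10.70, a difference of 0.055 ± 0.09 with a 95% interval of −0.18 to 0.29. Among the phosphofructokinase subunits, PFKL, the liver form, had −0.033 ± 0.10 and PFKP, the platelet form, −0.062 ± 0.10, both with overlapping arrays. The muscle form PFKM read 4.33 and 4.47 against 4.49 and 4.60 and had 0.15 ± 0.11. No phosphofructokinase subunit was near the sizes seen at HK2 or SLC2A1, and their intervals reached from −0.31 to 0.41.

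Fructose 2,6-bisphosphate, the strongest known activator of phosphofructokinase, is made and removed by the PFKFB enzymes, and TIGAR, a p53 target, degrades it. PFKFB4 read 8.31 and 8.19 in the GSK621 arrays and 7.30 and 7.71 after rapamycin. The rapamycin arrays were lower but stood wider apart from each other than the GSK621 arrays, and the difference was −0.74 ± 0.16 (adjusted p = 0.436), ranging from −0.95 to −0.54 when each array was left out. PFKFB3, the form with the strongest kinase activity, pointed the other way, with 7.11 and 7.13 against 7.37 and 7.14. Its difference of 0.14 ± 0.11 (adjusted p = 0.782) rested on replicate 1 of rapamycin then GSK621 and came to 0.025 without it. PFKFB2, the heart form, read 4.10 and 4.04 against 4.32 and 4.22, a difference of 0.20 ± 0.10. For PFKFB1 (−0.084 ± 0.19) and TIGAR (0.057 ± 0.19) the arrays overlapped and the sign turned, to 0.17 and −0.21 without GSK621 replicate 1.

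Aldolase splits the bisphosphate into triose phosphates. ALDOC, the form known from brain and from hypoxic cells, read 8.85 and 8.79 in the GSK621 arrays and 8.26 and 8.36 after rapamycin. The groups stood well apart, with a difference of −0.51 ± 0.10 (adjusted p = 0.430). ALDOA, the main form of most tissues, read 9.83 and 9.80 against 9.73 and 9.67, a difference of −0.11 ± 0.09 (adjusted p = 0.776). Its rapamycin arrays were lower too, by little more than the SE.

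The windows of ALDOC (chr17:28576846-28577145, minus strand) and ALDOA (chr16:30064029-30064328, plus strand) are shown in the same way, with ACGTG on either strand in capitals.
ALDOC: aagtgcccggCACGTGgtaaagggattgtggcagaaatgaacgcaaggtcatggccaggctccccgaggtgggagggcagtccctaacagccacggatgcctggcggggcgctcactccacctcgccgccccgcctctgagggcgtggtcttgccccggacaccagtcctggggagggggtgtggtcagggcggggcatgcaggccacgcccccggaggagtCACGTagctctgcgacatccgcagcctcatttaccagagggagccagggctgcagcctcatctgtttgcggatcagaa
ALDOA: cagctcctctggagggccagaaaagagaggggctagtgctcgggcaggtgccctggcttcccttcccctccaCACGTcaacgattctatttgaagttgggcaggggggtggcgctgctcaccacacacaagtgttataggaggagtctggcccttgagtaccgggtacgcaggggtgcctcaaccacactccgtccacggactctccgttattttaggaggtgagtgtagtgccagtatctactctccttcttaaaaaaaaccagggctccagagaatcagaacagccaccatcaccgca
ALDOC held ACGTG at 3 places, 2 of them overlapping in the palindrome CACGTG, and ALDOA held it at 1 place, 178 bases before the start.

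Triose phosphates are then carried to phosphoenolpyruvate in steps served mostly by single genes. TPI1, the isomerase, read 6.82 and 6.10 against 6.05 and 6.07, so that GSK621 replicate 1 alone stood high. Its difference of −0.40 ± 0.24 came to −0.036 without that array. GAPDH, the dehydrogenase often used as a reference gene, read 12.40 and 12.38 against 12.36 and 12.39. Its arrays overlapped and its difference was −0.018 ± 0.09, with a 95% interval of −0.25 to 0.21. RefSeq names 65 pseudogenes after GAPDH, so part of this signal may come from copies. The same limit holds for members with fewer named pseudogenes. These are LDHA (6), PKM (5), TPI1 and ENO1 (4 each), LDHB and SLC2A3 (3 each), ALDOA and PGK1 (2 each) and HK2 (1). PGK1, the first ATP-making enzyme of the pathway, read 10.99 and 10.92 against 10.66 and 10.66. Its rapamycin arrays were equal to the second decimal and lower, with a difference of −0.30 ± 0.09 (adjusted p = 0.562). The muscle mutase PGAM2 had −0.027 ± 0.17 with overlapping arrays, and leaving out replicate 2 of rapamycin then GSK621 gave 0.21. BPGM, which makes the haemoglobin ligand bisphosphoglycerate, had −0.093 ± 0.09 and came to −0.060 without GSK621 replicate 1.

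All 3 enolase genes had lower rapamycin arrays, by unlike amounts. ENO2, the form known from neurons, read 6.91 and 6.84 in the GSK621 arrays and 6.11 and 6.40 after rapamycin, a difference of −0.62 ± 0.13 (adjusted p = 0.436). ENO1, the common form, read 11.16 and 11.04 against 10.90 and 10.88, a difference of −0.21 ± 0.10 (adjusted p = 0.635). In ENO3, the muscle form, GSK621 replicate 2 stood apart at 5.46, with 5.05 in its partner and 4.97 and 4.98 after rapamycin. The difference of −0.28 ± 0.16 came to −0.074 without that array.

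Pyruvate kinase closes glycolysis and lactate dehydrogenase restores its NAD. PKM, whose probe set does not separate the M1 and M2 splice forms, read 9.79 and 9.67 against 9.59 and 9.63, a difference of −0.12 ± 0.10 that came to −0.062 without GSK621 replicate 1. PKLR, the form of liver and red cells, had 0.042 ± 0.10 with overlapping arrays, and −0.031 without GSK621 replicate 2. LDHA, the subunit that favours making lactate, read 7.86 and 7.82 in the GSK621 arrays and 7.51 and 7.44 after rapamycin. These groups were tight and apart, and the difference was −0.37 ± 0.09 (adjusted p = 0.516). LDHB, the heart subunit, read 10.45 and 10.38 against 10.45 and 10.40, fully overlapping, with a difference of 0.014 ± 0.09 and a 95% interval of −0.22 to 0.25. LDHB turned to −0.018 without GSK621 replicate 2.

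LDHA (chr11:18394313-18394612, plus strand) and LDHB (chr12:21657793-21658092, minus strand) are shown as subunits of the same enzyme with unlike differences, again with ACGTG on either strand in capitals.
LDHA: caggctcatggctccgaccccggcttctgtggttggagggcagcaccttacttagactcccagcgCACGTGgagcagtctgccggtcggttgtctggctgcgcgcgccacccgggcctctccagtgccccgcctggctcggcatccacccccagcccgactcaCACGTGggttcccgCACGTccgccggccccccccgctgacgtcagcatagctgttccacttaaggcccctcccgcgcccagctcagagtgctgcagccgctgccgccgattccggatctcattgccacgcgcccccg
LDHB: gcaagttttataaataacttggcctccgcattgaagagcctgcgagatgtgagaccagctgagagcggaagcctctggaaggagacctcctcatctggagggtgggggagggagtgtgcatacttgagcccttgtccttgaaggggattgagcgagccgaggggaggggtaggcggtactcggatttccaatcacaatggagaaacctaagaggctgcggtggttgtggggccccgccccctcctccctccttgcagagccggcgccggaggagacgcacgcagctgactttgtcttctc
The LDHA window held 5 matches, 4 of them in 2 copies of CACGTG that start 185 and 87 bases before the start and the last at 73 bases. In the LDHB window ACGTG was not present, but a variant core, GCGTG, stood at 1 place in each of these windows.

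PGM1 and PGM2, the phosphoglucomutases that link glycolysis to glycogen, differed in sign. PGM1 had a mean of 7.06 ± 0.03 (SD, n = 2) against 6.88 ± 0.17, with no overlap, a difference of −0.18 ± 0.12 that came to −0.059 without replicate 1 of rapamycin then GSK621. PGM2, which also acts on pentose phosphates, read 9.79 and 9.68 against 9.82 and 9.91, a difference of 0.13 ± 0.10, and 0.077 without GSK621 replicate 2.

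The windows of PGM1 (chr1:63593161-63593460, plus strand) and PGM2 (chr4:37826436-37826735, plus strand) are shown because here the matches fall in the gene with the higher rapamycin arrays.
PGM1: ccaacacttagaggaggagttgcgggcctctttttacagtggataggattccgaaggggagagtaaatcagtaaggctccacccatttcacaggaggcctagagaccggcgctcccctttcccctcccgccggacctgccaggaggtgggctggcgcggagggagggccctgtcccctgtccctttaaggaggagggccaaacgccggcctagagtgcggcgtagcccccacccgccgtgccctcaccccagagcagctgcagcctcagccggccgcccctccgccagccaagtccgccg
PGM2: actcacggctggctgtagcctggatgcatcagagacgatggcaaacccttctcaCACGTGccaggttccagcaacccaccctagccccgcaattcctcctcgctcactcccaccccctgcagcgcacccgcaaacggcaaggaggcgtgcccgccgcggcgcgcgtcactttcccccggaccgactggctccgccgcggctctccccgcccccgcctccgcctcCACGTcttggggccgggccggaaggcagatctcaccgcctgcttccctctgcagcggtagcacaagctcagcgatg
PGM2 held 3 matches of ACGTG, 2 of them in 1 copy of CACGTG, and in the PGM1 window these letters were not present. In the windows of PFKFB4 and PFKFB3, which also differed in sign, they were not present either. The pairs shown were picked after the matches had been seen.

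**Figure D2:**
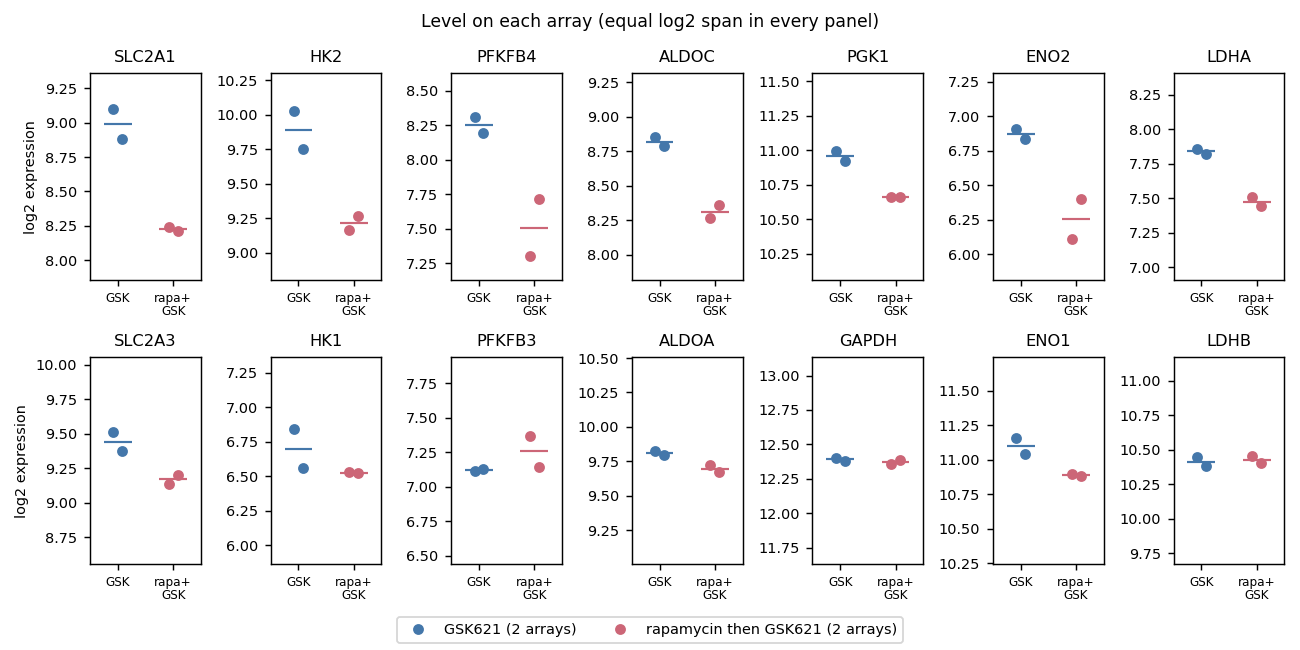
Log2 expression of 14 members on each array (points) with the group mean (line), n = 2 arrays per group, each panel spanning the same log2 range. The upper row holds 7 of the 8 lower members, whose groups do not overlap, and the lower row holds SLC2A3 and 6 genes of the same or an adjacent step, of which GAPDH and LDHB overlap.

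Genes of the same step were compared through the difference of their log2 values within each array, which cancels what moves a whole array. Of 27 such pairs, 18 had rapamycin arrays apart from the GSK621 arrays, beside 38.8% of all pairs of genes. That share covers genes of all levels, and none was taken for pairs of genes of like level. The pairs share genes and are not independent. Not all are isoenzymes, since TIGAR was paired with each PFKFB gene and BPGM with PGAM2. With 2 against 2 arrays the exact two-sided permutation test cannot go below 0.333, which becomes 0.500 after adjustment over the 27 pairs, so no pair can pass. LDHA minus LDHB was −2.59 and −2.56 in the GSK621 arrays and −2.94 and −2.96 after rapamycin, a shift of −0.38 with a pooled SD of 0.02. HK1 minus HK2 shifted by 0.50 (pooled SD 0.06), from −3.19 in both GSK621 arrays to −2.63 and −2.74. Both shifts were larger than the spread between the arrays of a group. The values on each array set 2 probe sets against each other and are not ratios of RNA amounts. SLC2A1 minus SLC2A3 shifted by −0.49 (0.07), ALDOA minus ALDOC by 0.39 (0.08) and ENO1 minus ENO2 by 0.41 (0.15). PFKFB3 minus PFKFB4 shifted by 0.88 with a larger pooled SD of 0.33. PFKL minus PFKP moved by 0.03 (0.02), which shows that a pair can be apart between groups at a shift of little size. Unequal shifts within a pair do not show that either gene stayed level.

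**Figure D3:**
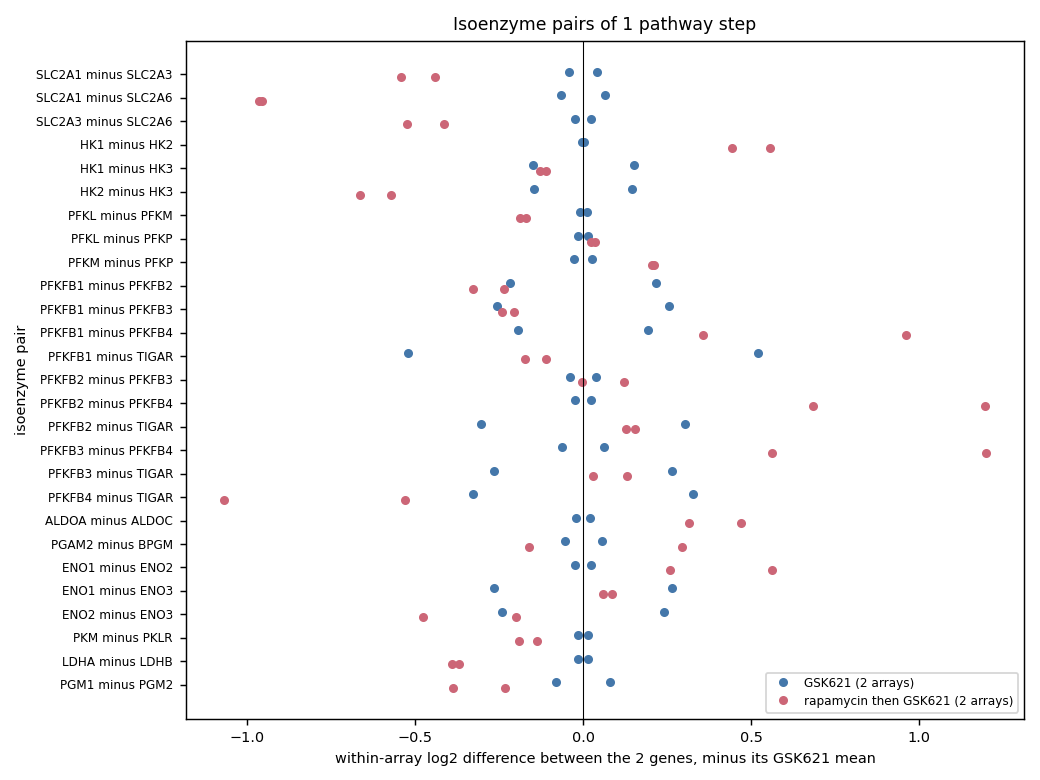
Within-array log2 difference between 2 genes of the same step, for 27 pairs, set to 0 at the mean of the GSK621 arrays, with 1 point per array and n = 2 per group. The largest shifts, of −0.96 for SLC2A1 minus SLC2A6 and 0.94 for PFKFB2 minus PFKFB4, involve SLC2A1 and PFKFB4.

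Across the members, 29 had a promoter window in the RefSeq table, and SLC2A3 and PFKFB2 had none. ACGTG on either strand stood in 12 of the 29 windows (41.4%) and in 23.4% of 17287 windows of tested genes. It stood in 5 of 7 windows of the lower members (HK2, ALDOC, PGK1, ENO2 and LDHA) and in 7 of 22 windows of the others, which include those of GAPDH, GPI and PGM2. SLC2A1 and PFKFB4, with the lowest differences, had windows without ACGTG and with 1 match of GCGTG each. The variant core GCGTG, searched on both strands, can share at most 1 base with ACGTG and was in 15 of 29 windows (51.7%) and in 42.2% of those of tested genes. It stood in 6 of 7 windows of the lower members and in 9 of 22 of the others. The palindrome CACGTG, each copy of which also counts as 2 overlapping matches of ACGTG, was in 5 of 29 (17.2%) and in 8.45%. The windows of members were richer in G and C than those of tested genes, with a median of 68.7% against 62.0%. Within the members the median was 70.7% in windows of the lower ones and 67.2% in the others. The part of this base composition in the motif shares was not tested.

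Among genes around the pathway, 8 lists with 110 entries were counted, of which 102 were measured and 0 passed the adjusted threshold. At an unadjusted p under 0.05 there were 7 lower and 4 higher, beside 4.20% and 4.31% of all genes. The carriers of sugar outside the members (13 of 13 measured) and the other isoenzymes (11 of 13) held 0 of them in either direction, with SLC2A8 at −0.22 ± 0.14, LDHD, which acts on D-lactate, at −0.24 ± 0.10, PGAM4, a near copy of PGAM1, at −0.29 ± 0.13 and LDHAL6A at 0.22 ± 0.10. The arrays of 2 of these other isoenzymes were lower and of 2 higher without overlap (18.2% each), beside 18.9% and 20.5% of all genes. LDHAL6A was dim, at percentile 16.7 of mean level. For lactate export, 8 of 9 other monocarboxylate carriers and partners were measured, with 0 called. BSG, the chaperone of these carriers, had 0.15 ± 0.10, its relative EMB −0.21 ± 0.10 and the carrier SLC16A7 −0.16 ± 0.13. Pyruvate entry into mitochondria held 1 of 14, PDK1, the kinase that shuts pyruvate dehydrogenase. PDK1 read 10.40 and 10.21 in the GSK621 arrays and 9.91 and 9.96 after rapamycin, a difference of −0.37 ± 0.11 (adjusted p = 0.552).

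Glycogen genes held 2 lower and 1 higher of 21 measured. GYS1, glycogen synthase, had −0.47 ± 0.11, the branching enzyme GBE1 −0.45 ± 0.15 and EPM2A, the phosphatase laforin, 0.43 ± 0.12. Redox shuttles held 2 lower of 10, GOT1 (−0.48 ± 0.10) and MDH1 (−0.29 ± 0.10), both of the malate-aspartate shuttle that moves cytosolic NADH into mitochondria. The other listed genes of the malate-aspartate shuttle had overlapping arrays, with differences from −0.062 to 0.093. Gluconeogenesis held 0 of 8, with 6 higher and 2 lower means, among them PCK1 at 0.22 ± 0.15, SLC37A4 at 0.16 ± 0.11 and FBP1 at −0.17 ± 0.11.

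The list of regulators of these genes, which also holds TXNIP and ARRDC4, had 2 lower and 3 higher of 17 measured. These shares, 11.8% and 17.6% at an unadjusted p under 0.05, stood beside 4.20% and 4.31% of all genes. The 3 higher genes were MYC, TXNIP and ARRDC4. HIF1A, the oxygen-controlled subunit of HIF1, read 9.99 and 10.02 in the GSK621 arrays and 9.67 and 9.70 after rapamycin, with −0.32 ± 0.09 (adjusted p = 0.543), and its partner ARNT had −0.059 ± 0.10. EGLN1, the hydroxylase that marks HIF for removal, had −0.33 ± 0.09, and EGLN3, itself a HIF target, −0.27 ± 0.11. EGLN3 was dim, at percentile 20.7 of mean level. MYC, another activator of glycolysis genes, had 0.28 ± 0.09 and the glucose sensor MLXIP (MondoA) 0.25 ± 0.10. The MLXIP targets TXNIP (0.72 ± 0.15), which restrains SLC2A1 at the cell surface, and ARRDC4 (1.29 ± 0.16) were higher after rapamycin, opposite in sign to SLC2A1. The protein levels and activities of these factors were not measured.

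**Figure D4:**
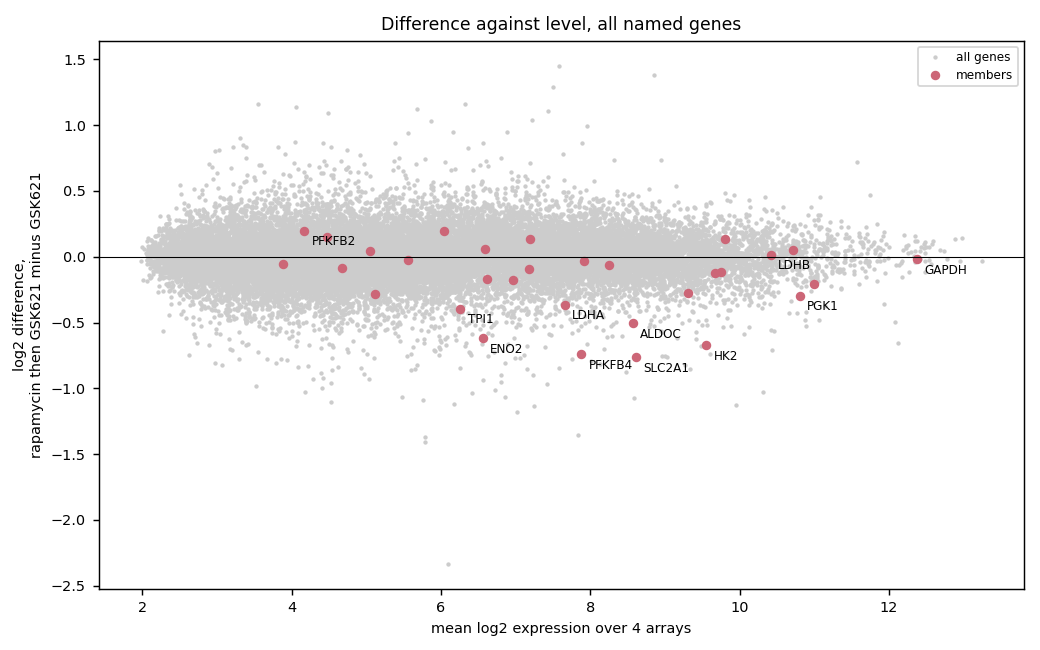
Log2 difference of rapamycin then GSK621 minus GSK621 against mean log2 expression over 4 arrays for 24241 genes (grey) and the 31 members (red), 1 point per gene. SLC2A1 (−0.76), PFKFB4 (−0.74) and HK2 (−0.67) lie among the lower differences of genes of like level, while GAPDH (−0.018) lies near 0.

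Array medians lay between 5.37 and 5.43, and precision is limited by the number of arrays, the median SE of a difference being 0.11 over all genes. Of 12 myeloid markers 11 were measured, at percentiles 40.9 to 99.7 of mean level (median 94.2), with LYZ the brightest. The 5 T-cell markers lay at percentiles 19.6 to 61.1 (median 30.3). Of 5 B-cell markers 4 were measured, at 14.5 to 86.4 (median 52.6), the brightest being PAX5. The 5 epithelial markers lay at 20.9 to 71.1 (median 56.0) and the 5 fibroblast markers at 3.6 to 61.9 (median 38.4). Of 5 erythroid markers 4 were measured, at 3.0 to 66.3 (median 23.6). These are positions of probe sets on the array and not amounts of RNA. In total RNA of a culture, fewer cells with a transcript and less of it per cell cannot be told apart.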

How the data were processed

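Total RNA of 4 MOLM-14 cultures was labelled for Affymetrix whole-transcript arrays, per the labels' protocols. The submitters' processing notes list R 2.15.3 and Partek without their roles. How background, normalization and log base were handled is not given in the sources used here. Deposited values were taken to be log2 expression, with 1 value per gene-level probe set, from 1.84 to 13.28 with near-equal quantiles, and no detection calls were used.

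Of 25582 probe sets, 24244 carried 1 symbol in the platform annotation, 0 several and 1338 none. For 3 symbols with several probe sets the brightest was kept, which left 24241 genes, and each member had a single probe set. Values were used with no filter. Rapamycin then GSK621 minus GSK621 was fitted over all genes by limma (version 3.58.1, lmFit and eBayes, under R 4.3.3). Tests were two-sided and p-values were adjusted by Benjamini-Hochberg, with 2 residual and 3.39 prior degrees of freedom. The fit was tested on simulated data. Intervals are 95% from the same fit. Lists are described by counts and medians with no set test. All members are named, and of each list around the pathway up to 4 genes with the smallest p. Of the regulators list 7 genes are named whatever their values. The members and lists were chosen with earlier results of these data known. Other settings were the replicate number as a block, other normalizations, filters, variance models and leaving out each array, and cyclic loess was added after seeing the data. Promoter windows are from RefSeq on GRCh38.p14.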

Additional observations from a re-analysis of the deposited data

How the results depend on the processing

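The sign of all 31 members was kept under quantile normalization and under cyclic loess (chosen after seeing the data). The filters, the mean of probe sets and the variance settings left these differences as they were and bear on calls alone, centring moves all genes alike, and the filter on level held 25 of the members. With each array left out in turn the sign turned for 6 members near 0, with ranges of −0.34 to 0.17 for PFKFB1, −0.21 to 0.33 for TIGAR, −0.092 to 0.026 for PFKL, −0.018 to 0.047 for LDHB, −0.031 to 0.11 for PKLR and −0.26 to 0.21 for PGAM2. In the same leave-one-out fits the number of members lower at an unadjusted p under 0.05 ranged from 5 to 9. The median difference over all 31 members ranged from −0.13 to −0.062 in these fits. With genes above the median level the median over the 25 members held was −0.12, and with cyclic loess the median over all 31 was −0.12. Past the adjusted threshold there were 74 genes with a variance trend and robust estimation, among them 2 members, SLC2A1 (−0.76, adjusted p = 0.0297) and HK2 (−0.67, adjusted p = 0.0451), 3 genes with those above the median level, and 1 gene without moderation. Without moderation 6 members were lower at an unadjusted p under 0.05, with SLC2A3, PFKFB4 and ENO2 no longer among them and HK3 added. At other thresholds there were 3 genes (adjusted p under 0.2), 2064 genes with 8 members (unadjusted p under 0.05) and 467 genes with 6 members (unadjusted p under 0.01). Of the pairs of genes of the same step, 11 were apart among genes above the median level, where fewer pairs were available. With the replicate number as a block 0 genes passed, and 7 members were lower at an unadjusted p under 0.05, SLC2A3 no longer among them. Over all genes the deviations of same-numbered arrays correlated at 0.0923, and with 2 pairs the numbers are not shown to pair the cultures. The causes of these shifts were not tested.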
